A study of Mus musculus with 8 samples.

Results

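The BCL2 family decides whether the mitochondria of a cell commit it to apoptosis, and 10 of its genes were followed here by their symbols among the 29955 gene names that were measured: the 3 anti-apoptotic members Bcl2, Bcl2l1 and Mcl1, the 2 pore-forming effectors Bax and Bak1, and the 5 BH3-only members Bbc3, Pmaip1, Bcl2l11, Bid and Bad. All 10 were detected in every library. They were compared between wild-type (WT) and Ripk3 knockout (Ripk3-KO) mice in LSK and in LK cells of the bone marrow. LSK cells are the Lin- Sca1+ Kit+ stem and progenitor fraction. LK cells are the Lin- Sca1- Kit+ fraction, made up mainly of myeloid progenitors. RNA sequencing was done on 8 libraries in 4 groups of 2: WT LSK, Ripk3-KO LSK, WT LK and Ripk3-KO LK, all on a background labelled CD57BL6/J. The question of the design was what the loss of Ripk3, a kinase of the necroptosis pathway, changes in each population.

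Bone marrow cells were sorted straight from the mice. The sample labels state that the mice were untreated, whereas the study describes the sequenced cells as taken a month after repeated X-irradiation of both genotypes. The sources conflict on this point, and neither version gives the genotypes different treatments. The knockout is carried in all cells of the mouse, and how many mice went into a library, their age and their sex are not given in the sources used here. Xist was read at 108 to 413 in the 4 WT libraries and at most at 1.27 in the Ripk3-KO libraries, while the Y-linked gene Uty was at 0 in WT and at 16.8 to 31.6 in Ripk3-KO, so genotype and sex cannot be told apart in any difference between the genotypes below. Nothing says that the 2 libraries of a group came from separate mice, so the p-values measure the spread between these libraries, which may be technical.

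Anti-apoptotic members sit on the mitochondrial outer membrane and hold the effectors Bax and Bak1 in check. BH3-only proteins sense stress, cytokine loss or caspase activity and release that hold, after which Bax and Bak1 oligomerize, cytochrome c leaves the mitochondria and caspases are activated. Mcl1 is a short-lived protein known to be needed for the survival of hematopoietic stem cells, Bcl2l1 encodes BCL-XL, Bbc3 encodes PUMA, Pmaip1 encodes NOXA and Bcl2l11 encodes BIM. Bid is cut by caspase 8, the protease downstream of death receptors that is also known to restrain Ripk3-driven necroptosis.

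For 4 members, Mcl1, Bid, Bcl2 and Bbc3, the DNA just upstream of the start is shown. It gives the letters that common promoter elements would occupy. Mcl1 and Bid had the smallest p of the members between LSK and LK. Bcl2 and Bbc3 did not pass the genotype test in LSK or in LK. RefSeq start windows (build GRCm38.p6) were held for 9 of the 10 members, 15 windows in all. Each sequence runs 5′ to 3′ on the strand of the gene and ends at the base before the RefSeq start, except that bases covered by annotated exons were left off the end for Bid. Bbc3 is given by the first of its windows, which lies inside the span of longer annotated transcripts but in none of their exons. Capitals mark matches, on either strand, to 3 motifs: the GC box GGGCGG, the cAMP response element half-site TGACG and the ETS core with its flank CCGGAAG.
Mcl1 (chr3:95658471-95658720, plus strand, 250 bases): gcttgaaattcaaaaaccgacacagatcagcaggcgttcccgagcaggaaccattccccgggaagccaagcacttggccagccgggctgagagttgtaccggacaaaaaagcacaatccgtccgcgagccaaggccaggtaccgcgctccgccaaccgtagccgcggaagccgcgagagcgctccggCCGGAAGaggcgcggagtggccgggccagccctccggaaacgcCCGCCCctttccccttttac
Bid (chr6:120916854-120917074, minus strand, 221 bases): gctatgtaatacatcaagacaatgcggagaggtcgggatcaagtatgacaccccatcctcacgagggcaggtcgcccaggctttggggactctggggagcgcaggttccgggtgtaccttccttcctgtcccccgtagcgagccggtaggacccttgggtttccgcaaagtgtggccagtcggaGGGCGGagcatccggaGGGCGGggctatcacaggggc
Bcl2 (chr1:106714291-106714540, minus strand, 250 bases): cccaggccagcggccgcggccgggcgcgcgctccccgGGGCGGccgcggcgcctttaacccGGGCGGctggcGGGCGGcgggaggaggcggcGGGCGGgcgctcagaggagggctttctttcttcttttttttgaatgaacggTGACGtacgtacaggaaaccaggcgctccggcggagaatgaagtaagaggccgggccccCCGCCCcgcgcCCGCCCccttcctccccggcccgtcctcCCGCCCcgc
Bbc3 (chr7:16309333-16309582, plus strand, 250 bases): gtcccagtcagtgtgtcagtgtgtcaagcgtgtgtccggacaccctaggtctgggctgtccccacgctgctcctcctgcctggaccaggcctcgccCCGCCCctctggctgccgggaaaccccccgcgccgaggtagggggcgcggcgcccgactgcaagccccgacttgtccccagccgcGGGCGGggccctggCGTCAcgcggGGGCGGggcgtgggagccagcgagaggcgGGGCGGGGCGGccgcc
The GC box occurred 7 times upstream of Bcl2, 5 times upstream of Bbc3 with a pair of overlapping matches, 2 times upstream of Bid and 1 time upstream of Mcl1. It was present in 10 of the 15 windows of the members, which belong to 7 of the 9 members, and in 32.7% of 32851 windows of 250 bases genome-wide. Some members have more than 1 window, and the genome-wide windows were not matched for base content or expression. Whether the GC box is particular to the family was not tested. TGACG was found 1 time each upstream of Bcl2 and Bbc3 (17.8% of all windows), and CCGGAAG 1 time upstream of Mcl1 (6.91% of all windows). The CCAAT box, the E-box of letters CACGTG and the TATA box of letters TATAAA were also searched for and were not matched in these 4 stretches; they were present in 33.8%, 6.02% and 12.4% of all windows.

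Depth was 9782166 to 16280811 reads per library. Values are given as signal, which is the CPM (read counts scaled to the depth of the library) after a further scaling among the 4 libraries of a population; the columns are headed FPKM but are not divided by gene length. In these units 3 reads were worth 0.186 to 0.311. Ripk3 checked the genotype labels: its signal was 162 and 168 in WT LSK, 3.38 and 1.08 in Ripk3-KO LSK, 144 and 150 in WT LK, and 16.2 and 10.6 in Ripk3-KO LK. Ripk3 fell in Ripk3-KO by 5.78 in LSK and by 3.39 in LK on the log2(signal + 1) scale (adjusted p = 2.39e-09 and 1.07e-05, limma), with reads left in both populations. Sort markers matched the fractions, as the summed jointly scaled level of 9 LSK markers was 2146 to 3278 in LSK and 968 to 1099 in LK, and that of 8 LK myeloid progenitor markers was 4936 to 7708 in LSK and 57235 to 83629 in LK. The LSK markers lay between 2146 and 2191 in WT LSK and between 2892 and 3278 in Ripk3-KO LSK, where Flt3 rose by 0.78 and Gata1, of the LK list, fell by 1.32 on the log2 scale (adjusted p = 0.0298 and 0.0128). Mature neutrophil markers moved with genotype too: 7 of 8 rose in Ripk3-KO LSK and 5 of 8 in Ripk3-KO LK, and their summed level was 618 to 675 in WT LSK against 2072 to 2420 in Ripk3-KO LSK, and 874 to 890 in WT LK against 1912 to 1923 in Ripk3-KO LK, with none of them at 0 in all libraries. Of 10 immediate-early genes 2 fell in Ripk3-KO LSK and 3 in Ripk3-KO LK, while no B cell, T cell, erythroblast or macrophage marker passed the test by genotype. The part of these markers in the genotype differences of the BCL2 family was not tested.

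The members differed widely in level. To compare genes with each other, all 8 libraries were scaled together and the values divided by exon length, which gives CPM per kb. This length merges all annotated exons of a gene and need not be that of the transcript expressed, so the order depends on it. In LK, for example, Bcl2 had more jointly scaled CPM than Bad (means of 85.1 and 65.3) but less per kb. The 4 libraries of each population pool WT and Ripk3-KO, so the SD also holds any difference between the genotypes. In LSK, Mcl1 was the highest at 75.6 ± 8.03 (SD, n = 4), followed by Bax at 41.7 ± 7.46 and Bid at 26.3 ± 5.47 per kb. The 4 libraries of Mcl1 did not overlap those of Bax, nor those of Bax the ones of Bid. Bad followed at 17.4 ± 3.78 per kb and overlapped Bid, and Bcl2l1 at 8.28 ± 3.05 came next, its highest library (12.2) just below the lowest of Bad (13.2). From Bcl2l1 downwards, through Bcl2 at 7.71 ± 1.91, Bbc3 at 6.75 ± 2.20, Pmaip1 at 3.92 ± 1.93, Bcl2l11 at 2.66 ± 0.625 and Bak1 at 1.61 ± 0.705 per kb, each gene overlapped the next. Bak1 was read from only 21 to 81 reads per library, so its differences carry the widest errors of the family.

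In LK the order at the top was different. Bax at 69.8 ± 10.1 and Bid at 64.7 ± 4.40 per kb headed the list and overlapped each other. Mcl1 came next at 41.6 ± 34.5 per kb, with a range from 19.0 to 92.8 that reached across both its neighbours. Bad stood at 25.5 ± 4.36 per kb, above all the remaining members without overlap. Bcl2 at 9.30 ± 2.46, Bbc3 at 7.84 ± 3.62, Pmaip1 at 6.33 ± 1.92 and Bcl2l1 at 5.81 ± 0.520 per kb overlapped in sequence, and Bak1 at 1.77 ± 0.920 and Bcl2l11 at 1.39 ± 0.666 were lowest. Bid was thus read at more than the level of Mcl1 in 3 of the 4 LK libraries and below it in every LSK library: the ratio of Mcl1 to Bid per kb was 2.61, 3.00, 2.15 and 4.27 in the LSK libraries and 1.30, 0.497, 0.305 and 0.375 in the LK libraries.

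**Figure D1:**
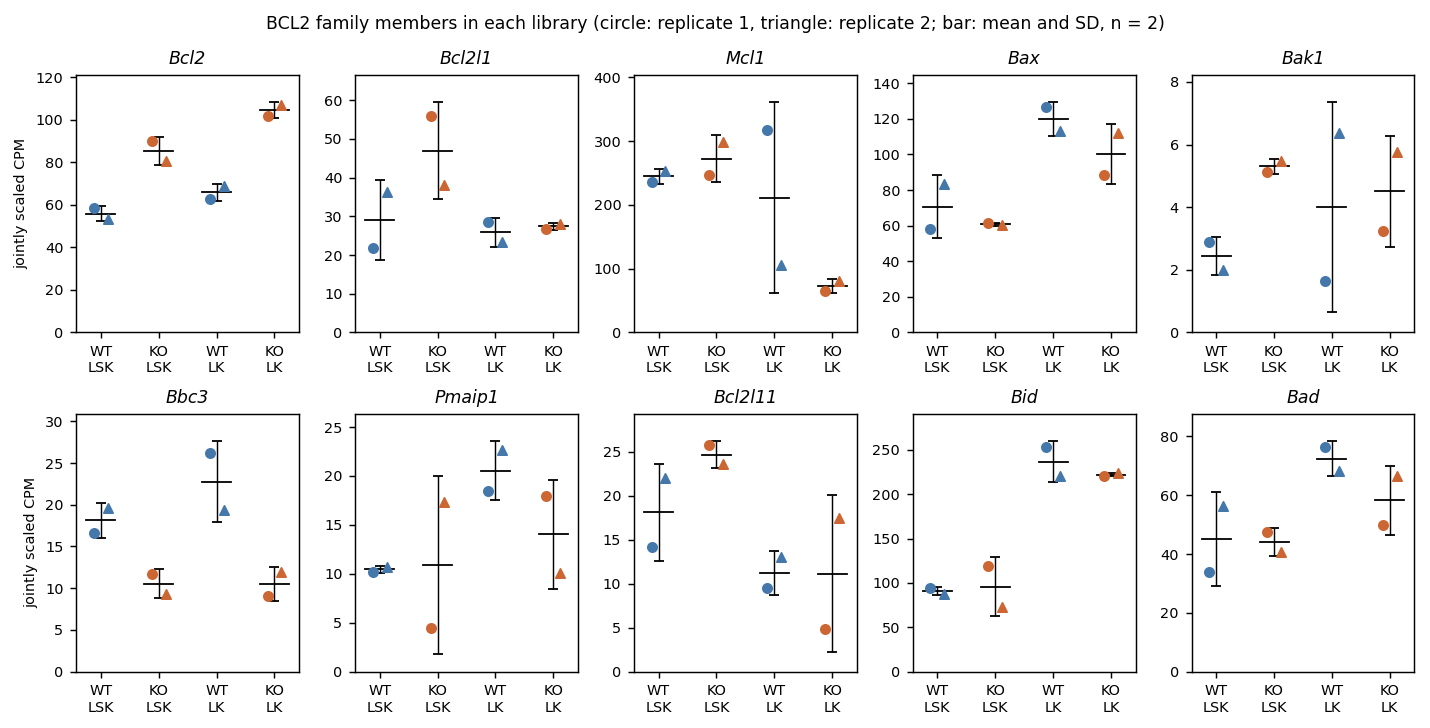
Level of each BCL2 family member in jointly scaled CPM (linear axes from 0) in the 8 libraries; blue is WT and orange Ripk3-KO, circles are replicate 1 and triangles replicate 2, and bars give the mean and SD (n = 2). Bcl2 lies higher and Bbc3 lower in both Ripk3-KO groups, Bid and Bax lie higher in LK, and Mcl1 is split between the WT LK libraries at 317 and 105.

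LSK and LK differed in 5 of the 10 members, read on the joint scale over 4 libraries of each population. Mcl1 and Bcl2l11 were higher in LSK, and Bid, Bax and Bad were higher in LK (limma on log2(value + 1), adjusted p under 0.05). Of all 15757 genes tested, 34.0% passed the same test, so a share of 5 in 10 is not far from that of genes at large. The median difference of the 10 members, LSK minus LK, was -0.21 and that of all genes 0.07 on the log2 scale. On the values as deposited these medians were 0.15 and 0.39, and 3 members were called higher and 1 lower in LSK. Among the 15901 genes tested on those values, 5363 passed and 3890 of these were higher in LSK. In bulk cells, a change in the make-up of the sorted fraction and a change of RNA per cell cannot be told apart.

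Bid, the BH3-only member that links caspase 8 to the mitochondria, differed most by p. Its jointly scaled CPM was 94.0 and 87.6 in WT LSK, 119 and 72.6 in Ripk3-KO LSK, 253 and 221 in WT LK, and 221 and 223 in Ripk3-KO LK. Every LK library lay far above every LSK library, and the LK libraries were close to each other. Bid was lower in LSK by 1.31 (SE 0.16) on the log2 scale, which is 2.48-fold (adjusted p = 9.86e-07). Within WT the difference was -1.37 (adjusted p = 1.22e-04) and within Ripk3-KO -1.25 (adjusted p = 2.99e-04), LSK minus LK. The 3′ end of Bid lies against that of Bcl2l13, another BCL2 family gene on the opposite strand, and 17.7% of the annotated exon bases of Bid are shared with it. The library kit keeps strand but whether the counting used it is not given in the sources used here, and Bcl2l13 was also lower in LSK, by 1.04 (SE 0.17, adjusted p = 4.52e-05).

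Mcl1 went the other way. Its jointly scaled CPM was 236 and 253 in WT LSK, 247 and 298 in Ripk3-KO LSK, 317 and 105 in WT LK, and 65.0 and 80.7 in Ripk3-KO LK. All libraries except WT LK replicate 1 separated the populations, and that library was the highest of the 8. Over all libraries Mcl1 was 2.22-fold higher in LSK (log2 difference 1.15, SE 0.22, adjusted p = 2.44e-04). Leaving out WT LK replicate 1 raised the difference to 1.55 and leaving out WT LK replicate 2 lowered it to 0.76, with the test passed both times. Within Ripk3-KO the difference was 1.89 (SE 0.31, adjusted p = 1.05e-04), while within WT it was 0.42 (SE 0.31, adjusted p = 0.332), reaching 1.20 (adjusted p = 0.00341) without WT LK replicate 1 and -0.37 without WT LK replicate 2. Immediate-early genes were also higher in LSK, with 9 of 10 passing the test and summed jointly scaled levels of 21989 to 25275 in LSK against 9731 to 11917 in LK. Their part in the difference of Mcl1 was not tested.

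Bax, the cytosolic effector that moves to mitochondria on activation, was higher in LK. Its jointly scaled CPM was 58.1 and 83.2 in WT LSK, 61.4 and 60.1 in Ripk3-KO LSK, 127 and 113 in WT LK, and 88.3 and 112 in Ripk3-KO LK. The populations did not overlap, as was also true of Bid, and of 28.0% of all genes. Bax was lower in LSK by 0.74 (SE 0.17, adjusted p = 0.00180), by 0.77 within WT (adjusted p = 0.0239) and by 0.70 within Ripk3-KO (adjusted p = 0.0440). Of the annotated exon bases of Bax, 12.2% are shared with Gm45808, a protein-coding gene on the same strand. On the values as deposited, in which the median of all genes lay at 0.39 and 72.5% of the genes that passed were higher in LSK against 40.4% on the joint scale, the difference of Bax was -0.37 (adjusted p = 0.0934); that of Bid was -0.94 and that of Mcl1 1.52, and both of these passed. Bak1, the effector that resides on the mitochondrial membrane, differed by -0.07 (SE 0.45, adjusted p = 0.921) and by 0.22 on the values as deposited. It shares 18.2% of its exon bases with Ggnbp1 on the opposite strand, which was read at 0 in every library.

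Among the remaining BH3-only members, Bcl2l11 ran from 14.2 to 25.7 CPM in LSK and from 4.81 to 17.4 in LK, so the populations overlapped, with a difference of 0.97 (SE 0.35, adjusted p = 0.0370). Bad ran from 33.7 to 56.4 in LSK and from 49.9 to 76.5 in LK, with a difference of -0.55 (SE 0.20, adjusted p = 0.0415). Neither passed when edgeR was run on the recovered reads (adjusted p = 0.0685 and 0.0823), which left 3 members, Mcl1, Bax and Bid. In that setting 4569 of all 15757 genes passed, so 3 in 10 is near the share of genes at large. The exons of Bad share 20.5% of their bases with Gpr137 on the opposite strand. Pmaip1, the NOXA gene, differed by -0.72 (SE 0.37, adjusted p = 0.140) and Bbc3 by -0.15 (SE 0.30, adjusted p = 0.732). Of the anti-apoptotic genes, Bcl2 differed by -0.26 (SE 0.16, adjusted p = 0.227) and Bcl2l1 by 0.43 (SE 0.24, adjusted p = 0.181), LSK minus LK. Within single genotypes, 2 of 10 members passed in WT, where 23.9% of all genes did, and 3 of 10 in Ripk3-KO, where 19.3% did.

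**Figure D2:**
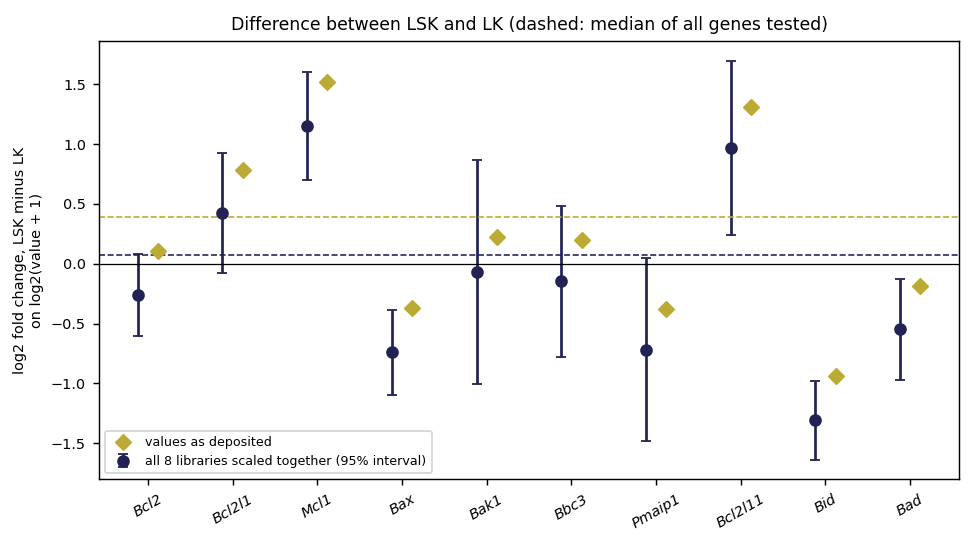
Log2 difference, LSK minus LK, of each member on log2(value + 1): circles with 95% intervals are from all 8 libraries scaled together and diamonds from the values as deposited, with dashed lines at the median of all genes under each scaling (0.07 and 0.39). Bid stays lowest and Mcl1 highest under both scalings, while Bcl2, Bak1 and Bbc3 change sign between them.

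The share of each anti-apoptotic gene in their summed level per kb does not depend on library scaling. It does depend on the merged exon lengths used, 3418 bases for Mcl1, 9157 for Bcl2 and 4586 for Bcl2l1. Mcl1 made up 86.2% and 84.3% of it in WT LSK and 76.6% and 83.6% in Ripk3-KO LSK. In LK it made up 87.6% and 71.1% in WT and 52.9% and 57.0% in Ripk3-KO. Both Ripk3-KO LK libraries were below all other libraries. Bcl2 supplied the largest part of the remainder there, at 30.9% and 28.2%, against 6.49% and 17.3% in WT LK and 6.64% to 10.4% across LSK. Bcl2l1 contributed 16.2% and 14.8% in Ripk3-KO LK, 5.87% and 11.7% in WT LK and 5.90% to 12.9% in LSK. Set against the effector, the ratio of Bcl2 to Bax per kb was 0.173 and 0.110 in WT LSK, 0.252 and 0.231 in Ripk3-KO LSK, 0.0855 and 0.105 in WT LK, and 0.198 and 0.164 in Ripk3-KO LK, so it was higher in both Ripk3-KO libraries of each population. These shares and ratios are descriptions over 8 libraries and were not tested.

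**Figure D3:**
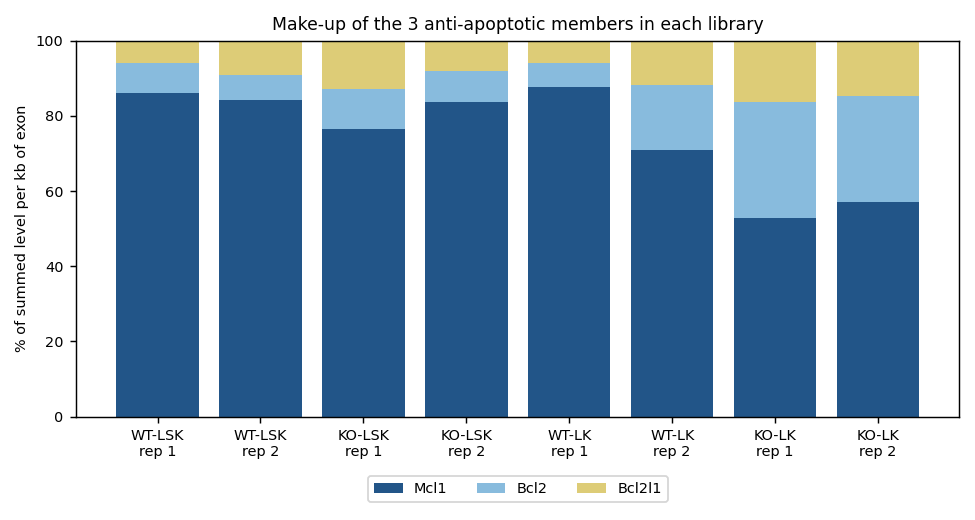
Share of Mcl1, Bcl2 and Bcl2l1 in their summed level per kb of exon, in percent, as stacked bars for the 8 libraries (rep, replicate). Mcl1 fills at least 76.6% of the bar in the 4 LSK libraries and 52.9% and 57.0% in the Ripk3-KO LK libraries.

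No member of the family passed the test between the genotypes in either population. None of the 10 had an adjusted p under 0.05 in LSK, where 2.16% of 16817 genes did, none in LK, where 0.473% of 13949 did, and none in the interaction of genotype and population, where 0.358% of 15901 did (limma). At an unadjusted p under 0.05 there was 1 member in LSK (Bcl2), 3 in LK (Bcl2, Mcl1 and Bbc3) and 1 in the interaction (Mcl1). Among all genes tested, 3011 of 16817 in LSK, 915 of 13949 in LK and 1613 of 15901 in the interaction were under it. EdgeR on the recovered reads gave 0 calls and the same counts of members at an unadjusted p under 0.05. The median log2 fold change of the members, Ripk3-KO minus WT, was 0.09 in LSK and -0.25 in LK, beside -0.01 and 0.01 for all genes tested. With 2 libraries against 2, an exact permutation test of a single gene could not go below p = 0.333.

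Bcl2, the founding survival gene of the family, had the same direction in both populations. Its signal was 66.4 and 60.8 in WT LSK against 101 and 92.2 in Ripk3-KO LSK, and 55.2 and 60.9 in WT LK against 89.6 and 93.5 in Ripk3-KO LK. No WT library reached the Ripk3-KO libraries of its population, and the order was the same in both populations. The log2 fold change was 0.60 (SE 0.23, adjusted p = 0.173) in LSK and 0.65 (SE 0.23, adjusted p = 0.421) in LK, and the 2 differed by -0.05 (SE 0.33). In a comparison added after these values were seen, which averaged the genotype difference over both populations, it was 0.62 (95% interval 0.29 to 0.96, adjusted p = 0.0541), or 1.54-fold. In that comparison 1.64% of all genes passed and no member did. With genes of mean signal under 5 left out, so that fewer genes were tested, Bcl2 passed (adjusted p = 0.0389). Of all genes tested in both populations, 6.28% had all Ripk3-KO libraries above WT in each, and Bcl2 was the only member among them.

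Bbc3, whose product PUMA binds all the anti-apoptotic proteins, lay the other way. Its signal was 19.0 and 22.4 in WT LSK, 13.3 and 10.7 in Ripk3-KO LSK, 23.0 and 17.2 in WT LK, and 7.99 and 10.4 in Ripk3-KO LK. Again the genotypes did not overlap in either population, as for 4.89% of all genes in this direction. The log2 fold change was -0.74 (SE 0.42, adjusted p = 0.361) in LSK and -1.04 (SE 0.43, adjusted p = 0.592) in LK. Averaged over both it was -0.89 (95% interval -1.52 to -0.27, adjusted p = 0.161), from 109 to 338 reads per library. Neither gene reached the threshold in either population on its own.

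Mcl1 was the member nearest to the threshold in LK. Its signal was 278 and 93.5 in WT LK and 57.2 and 70.4 in Ripk3-KO LK, while LSK gave 269 and 288 in WT and 278 and 341 in Ripk3-KO. Both Ripk3-KO LK libraries were below both WT LK libraries, but the WT libraries themselves were further apart than WT replicate 2 and Ripk3-KO were. These values rest on 4094 and 1225 reads in WT LK and on 902 and 1134 in Ripk3-KO LK. The log2 fold change was -1.33 (SE 0.31, adjusted p = 0.0511) in LK and 0.14 (SE 0.31, adjusted p = 0.848) in LSK, and the difference between them was 1.48 (SE 0.43, adjusted p = 0.219). The call in LK turned on the setting and the library: a fit of the 4 LK libraries alone gave adjusted p = 0.0209, and leaving out Ripk3-KO LSK replicate 1 or 2, which enter through the shared estimate of the spread, gave 0.0314 and 0.0360 at the same fold change. Leaving out WT LK replicate 2 gave -2.11 (adjusted p = 2.39e-05), and leaving out WT LK replicate 1 gave -0.55 (adjusted p of nearly 1). Without WT LK replicate 2 the interaction passed as well, at 2.26 (adjusted p = 5.03e-04), and without WT LK replicate 1 it was 0.70 (adjusted p = 0.801). A pseudogene transcript with a near-identical stretch is annotated for Mcl1 and for no other member.

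The other anti-apoptotic gene, Bcl2l1, had a signal of 24.7 and 41.3 in WT LSK and 63.0 and 43.5 in Ripk3-KO LSK, without overlap but with broad spread (log2 fold change 0.69, SE 0.34, adjusted p = 0.287). In LK its 4 values lay between 20.6 and 25.0 and the genotypes overlapped. Bax had a log2 fold change of -0.20 (SE 0.24) in LSK and -0.27 (SE 0.24) in LK, and Bak1 of 0.91 (SE 0.64) and 0.26 (SE 0.63), all with adjusted p of at least 0.476. Bak1 was read at 3.28 and 2.28 in WT LSK and 5.79 and 6.26 in Ripk3-KO LSK, from 22 to 72 reads. The remaining BH3-only genes had log2 fold changes from -0.20 for Pmaip1 to 0.45 for Bcl2l11 in LSK and from -0.57 for Pmaip1 to -0.10 for Bid in LK. Pmaip1 replicates were the most uneven of these in Ripk3-KO LSK, at 5.06 and 19.9. Libraries of the 2 genotypes did not overlap for 5 of 10 members in LSK (4 higher and 1 lower in Ripk3-KO), where 44.6% of all genes did not overlap, and for 7 of 10 in LK (1 higher and 6 lower), where 40.0% did not.

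**Figure D4:**
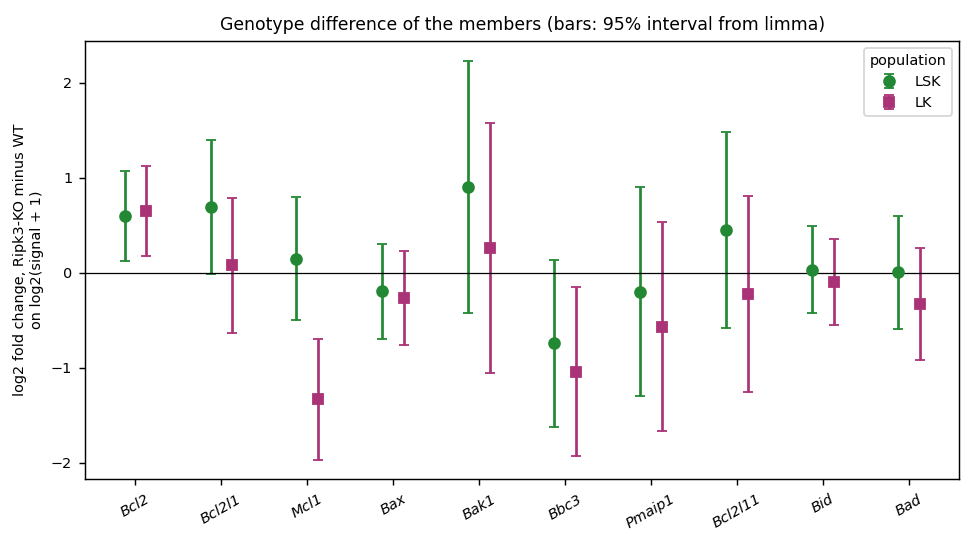
Log2 fold change, Ripk3-KO minus WT, on log2(signal + 1) for the 10 members in LSK (circles) and LK (squares), with 95% intervals from limma. Both intervals exclude 0 only for Bcl2, and those of Mcl1 and Bbc3 exclude 0 in LK, before any adjustment over genes.

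The rest of the pathway was read from lists of related genes. Across 7 lists (other BCL2 family genes, apoptosome and caspases, IAPs and their antagonists, outer membrane and fission genes, death receptors, transcription factors known to act on the family, and regulators of MCL1 and BIM turnover), 1 gene changed with genotype in a single population. This was Cycs, the gene of cytochrome c, whose release follows pore formation by Bax and Bak1: its signal was 150 and 164 in WT LSK against 66.6 and 62.3 in Ripk3-KO LSK, and 237 and 208 in WT LK against 225 and 217 in Ripk3-KO LK. Cycs fell in LSK by 1.27 (SE 0.19, adjusted p = 5.52e-04), and its difference in LK was -0.01 (SE 0.19). Annotated pseudogenes with near-identical stretches number 9 for Cycs, so its reads may be shared with copies. In the comparison averaged over both populations, added after the data were seen, 1.64% of all genes passed. There Atf4 and Ddit3, transcription factors of the integrated stress response, fell by 0.47 and 0.88 (limma, adjusted p = 0.0382 and 0.0145). Both are in the list of factors known to act on the family, Ddit3 on Bcl2l11 and Bcl2. Neither factor passed in LSK or in LK alone.

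Between LSK and LK the lists are read beside the 2164 genes of all 15757 that were higher in LSK and the 3187 that were lower, which together are the 34.0% given above. Of 13 apoptosome and caspase genes 6 were lower and 1 higher in LSK, and Cycs (-1.50) and Parp1 (-0.98), a caspase substrate, had the smallest p. On the values as deposited 4 of this list were lower and 3 higher, and its median was -0.05 in place of -0.42. Of 12 outer membrane and fission genes 8 were lower and none higher in LSK, led by Tspo (-1.03), the mitofusin Mfn2 (-1.48) and the channel Vdac2 (-0.77); this list had a median of -0.68 beside 0.07 for all genes, and 5 were lower and none higher on the values as deposited, against 3 lower and 1 higher after quantile normalization. Of 9 other BCL2 family genes tested 2 were higher and 2 lower, with Bok at 2.15, Bcl2l13 at -1.04 and the mitophagy receptor Bnip3l at -0.59. Of 9 IAP-related genes 2 were higher and 2 lower, among them Xiap, a direct caspase inhibitor, at 0.91, Birc5 at -0.71 and Aifm1 at -1.10. Of 7 genes upstream of Bid 2 were higher and 1 lower, with the death ligand Tnfsf10 at 1.94, Tnf at 0.83 and Ripk1 at -1.04. Of 13 transcription factors tested 4 were higher and 4 lower: Foxo1, of a family known to induce Bcl2l11 and Bbc3, stood at 1.33, Ddit3 at 0.64 and E2f1 at -1.06. On the values as deposited 4 of these factors were higher and none lower, and after quantile normalization 3 were higher and 1 lower. E2f1 was read at 120 in WT LK replicate 1 and at 38.7, 22.9 and 30.5 CPM in the other LK libraries, and without that library its difference was -0.66 (adjusted p = 0.104). Of 12 turnover regulators 2 were higher and 3 lower, with Fbxw7, a ubiquitin ligase for MCL1, at 0.79 and Ywhaz, a 14-3-3 protein known to hold Bad, at -0.51. Xiap did not pass without WT LSK replicate 1 or Ripk3-KO LK replicate 2, Ddit3 without replicate 1 of Ripk3-KO LSK, WT LK or Ripk3-KO LK, and Tnf and Fbxw7 without most of the libraries in turn. All of these are log2 differences, LSK minus LK, on the joint scale that passed the test; Bnip3l and Ywhaz passed neither on the values as deposited nor after quantile normalization, and the turnover list then had 2 higher with none lower and no calls, respectively.

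The genes whose pattern over the 8 libraries was closest to each member were ranked by Pearson r on jointly scaled log2 values among 10700 genes, as a description; the libraries share population and genotype, which alone can give high values. Bid was followed most closely by Lrrc59 (0.993) and Tor1a (0.993), Bad by Zfp259 (0.991) and St3gal5 (0.979), and Bax by Fam96a (0.986) and Bsg (0.985). Mcl1 was followed by Gtl3 (0.978) and Cirbp (0.966), and Bcl2 by A230046K03Rik (0.977) and Gopc (0.971). For Bbc3 the nearest were Macrod1 (0.961) and Ftl2 (0.960), and for Pmaip1 Trappc2l (0.965) and Vma21 (0.930). Bcl2l1 was nearest to Gstz1 (0.955) and B230118H07Rik (0.944), Bcl2l11 to 1500031L02Rik (0.947) and C85492 (0.947), and Bak1 to Traf3ip1 (0.931) and 4932438A13Rik (0.923). No other BCL2 family member was among these.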

How the data were processed

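Bone marrow LSK and LK cells of WT and Ripk3-KO mice were profiled by mRNA sequencing with a stranded library kit, in 8 libraries (4 groups, n = 2). The submitters' processing notes name TopHat and mm9; the counting tool is not given in the sources used here. The deposited values, headed FPKM, were treated as signal: each was a whole multiple of 1 step per library (all values within 0.01 of a whole number of reads), and the reads so recovered, scaled by TMM within each population, gave back what the authors deposited. Signal is therefore normalized by the authors for depth and composition but not for length. No columns of the authors' own comparisons were present.

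Groups follow the sample titles. Differences were tested with limma 3.58.1 (trend) in R 4.3.3 on log2(signal + 1) in 1 fit of 4 group means over the 8 libraries, for genes with a mean of at least 1, with Benjamini-Hochberg adjustment over all genes tested and a threshold of 0.05. Fold changes on this scale understate changes of low genes. LSK and LK were compared after TMM scaling of all 8 libraries together (edgeR 4.0.16), since the deposited values were scaled within each population. The fit was checked on simulated data. Alternatives were a pseudocount of 0.1, no filter, a mean of at least 5, quantile normalization, edgeR's quasi-likelihood test on recovered reads, the replicate number as a block, separate fits, the other scaling, and leaving out each library.

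Exon lengths and overlaps came from GENCODE M21 (GRCm38), another build than that of the alignment, and pseudogenes from BLAST 2.17.0 (at least 90% identity over at least 200 bases, 13607 pseudogene transcripts). Start windows came from RefSeq. All 10 members were named; from the 7 pathway lists, genes called by genotype or in the interaction and the 3 with the smallest p between LSK and LK, of which some are not reported here; and the 2 genes most like each member by Pearson r among genes with a mean of at least 5. Members and lists were chosen with earlier results of these data known. No table of protein sequences was used here.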

Additional observations from a re-analysis of the deposited data

Results flagged for a closer look

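No member of the BCL2 family had a genotype difference that itself differed between LSK and LK past the threshold. Among the related genes named, 3 did, by the interaction term of the limma fit (log2 fold change in LSK minus that in LK). Cycs had an interaction of -1.26 (adjusted p = 0.0389), with a fall in Ripk3-KO LSK and nearly equal values in LK. The neutrophil marker S100a8 had 1.23 (adjusted p = 0.0216), with the larger rise in Ripk3-KO LSK. Ripk3 itself had -2.40 (adjusted p = 0.0343), since more of its signal was left in Ripk3-KO LK than in Ripk3-KO LSK. All 3 missed the threshold in most fits that left out a library, and the cause was not tested.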

How the results depend on the processing

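With 2 libraries a group and no information on mice, the spread between libraries limited what could be detected, and Bak1 was read from the fewest reads. In LSK no member passed under any setting. In LK, 1 member (Mcl1) passed with the replicate block (adjusted p = 0.00948) and 1 with separate fits, and 0 to 1 when a library was left out; for the interaction the range was 0 to 1. Between LSK and LK, where 5 members passed, 3 did without a filter, 2 after quantile normalization, 3 with edgeR and 3 to 4 when a library was left out; Mcl1 and Bid passed in every one of these settings. With the replicate block 4 passed. Among all genes tested between LSK and LK, 4104 of 24365 passed without a filter. After quantile normalization 3693 of 15757 passed, and with edgeR 4569 of 15757 did. For genotype in LK, 79 of 13949 genes passed with the replicate block and 125 of 13949 with separate fits. The replicate numbers as labelled gave no sign of pairing the libraries. Correlations of deviations were -0.01 for LSK and -0.03 for LK between genotypes, and 0.01 for WT and -0.16 for Ripk3-KO between populations. They cannot settle whether LSK and LK libraries came from the same mice, and the main test did not model such a pairing. With the Ripk3-KO numbers crossed, a pairing chosen after seeing the value of -0.16, 5 members and 5687 genes passed. With the numbers as labelled 4817 genes passed, and 5351 did without a block. For the genotype difference averaged over both populations, added after seeing the data, 1 member passed with a mean of at least 5. There 285 of all 10797 genes tested passed. In the same comparison without WT LK replicate 2, Mcl1 stood at -0.98.

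Some directions reversed, and the cause was not tested. For genotype in LSK, edgeR gave 0.056 for Pmaip1 and -0.042 for Bad, and quantile normalization -0.0735 for Bid and -0.16 for Bad. In LK quantile normalization gave 0.10 for Cycs, and for the interaction -0.0695 for Bbc3. Between LSK and LK it gave 0.0505 for Bcl2, and the values as deposited gave 0.10 for Bcl2, 0.22 for Bak1 and 0.20 for Bbc3.

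When a library was left out, differences in LSK ran from -0.0015 to 0.29 for Mcl1, -0.45 to 0.0596 for Bax, -1.09 to 0.69 for Pmaip1, -0.31 to 0.38 for Bid and -0.36 to 0.37 for Bad. In LK they ran from -0.057 to 0.21 for Bcl2l1, -0.46 to 0.99 for Bak1, -1.04 to 0.59 for Bcl2l11 and -0.10 to 0.085 for Cycs. The interaction of Bcl2 ran from -0.12 to 0.018, the difference of Bak1 between LSK and LK from -0.44 to 0.31, and that of Mcl1 within WT from -0.37 to 1.20.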
